A study of Drosophila melanogaster with 6 samples.

Results

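The transcripts described here come from 10 genes that set the threshold for programmed cell death in *Drosophila*. They are the death inducers *rpr*, *grim* and *skl*, the caspase inhibitor *th*, the effector caspases *Dcp-1* and *Ice*, the caspase activator *Ark*, the Bcl-2 family genes *Buffy* and *debcl*, and *BI-1*. The genes were chosen by symbol, and each of the 10 was found among the 14540 rows of the expression table. RNA-seq had been performed on mRNA purified from total RNA of S2 cells and of SIN3 187HA cells, 3 independent replicates a group. S2 cells, labelled wild type, are a culture line that came from late embryos. SIN3 187HA cells are S2 cells with a stably transfected, HA-tagged transgene for one isoform of SIN3, a scaffold protein of a corepressor complex. A copper-responsive metallothionein promoter drives it, and CuSO4 was added to both groups. The labels state 0.07 µM for 48 h, under replicate 1 of each group, whereas the methods of the study state 0.07 M. According to the methods, transfected lines were grown with Geneticin and penicillin/streptomycin, and S2 cells received gentamycin. The methods also state that the S2 controls for RNA-seq had the same treatment as the line, without naming Geneticin. The comparison is between 1 stable line and the cells it was made from, so the transgene, the selection and the history of the line cannot be told apart. The study also reports, from western blots, that the SIN3 isoform predominant in S2 cells was almost lost in this line. Gain of the transgenic isoform and loss of the predominant isoform therefore cannot be told apart either.

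The authors combined the replicates of a group before deposition. Each gene therefore has 1 value for S2 and 1 for SIN3 187HA, in FPKM, which is the number of sequenced fragments scaled for transcript length and for library size. No difference given here has a replicate check, no error between replicates can be attached to a value, and no test was run. Differences are log2 values of SIN3 187HA over S2, taken after adding 0.1 FPKM to both, and folds are plain ratios of FPKM. A row was kept if its mean FPKM over both groups was at least 1, which held for 8202 of 14540 rows. A kept row was counted as past the threshold if it differed at least 2-fold on that log2 scale. *Sin3A*, the gene behind the transgene, was 56.9 FPKM in S2 and 2319 FPKM in SIN3 187HA, a 40.8-fold higher level in the line labelled as overexpressing it. These values are for the whole gene and do not separate its isoforms.

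In fly cells, death is held back by inhibitor of apoptosis proteins (IAPs), chiefly DIAP1, the product of *th*, which binds caspases and marks them for ubiquitination. The IAP antagonists Reaper, Grim, Sickle and Hid bind DIAP1 and free the caspases from it. The Apaf-1 homologue encoded by *Ark* assembles with the initiator caspase Dronc, which then cleaves the effector caspases DrICE (*Ice*) and Dcp-1. S2 cells are widely used to study this pathway because they die by it when DIAP1 is depleted.

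Of the 10 genes, 9 were kept, and 5 of those 9 (55.6%) were past 2-fold, beside 25.2% of all kept rows. *th*, *debcl* and *BI-1* were lower in SIN3 187HA, whereas *skl* and *Buffy* were higher. At a 3-fold threshold only *BI-1* was past, 1 of 9 (11.1%) beside 15.1% of all kept rows, so the share above that of the table does not hold at that size. The shares of all kept rows past 2-fold in one direction were 12.3% lower and 12.9% higher. The median log2 difference of the 9 genes was -0.73, beside -0.04 over all kept rows, and 6 of the 9 lay below 0 against 4304 of 8202 rows. The median distance from 0 was 1.10 for these genes and 0.48 for all kept rows. Genes with opposed functions stood on the same side, since the caspase inhibitor *th* and the death inducer *rpr* were both lower, and so were the effector caspase *Ice* and *BI-1*, which protects cells from death, although *rpr* and *Ice* were not past 2-fold.

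**Figure D1:**
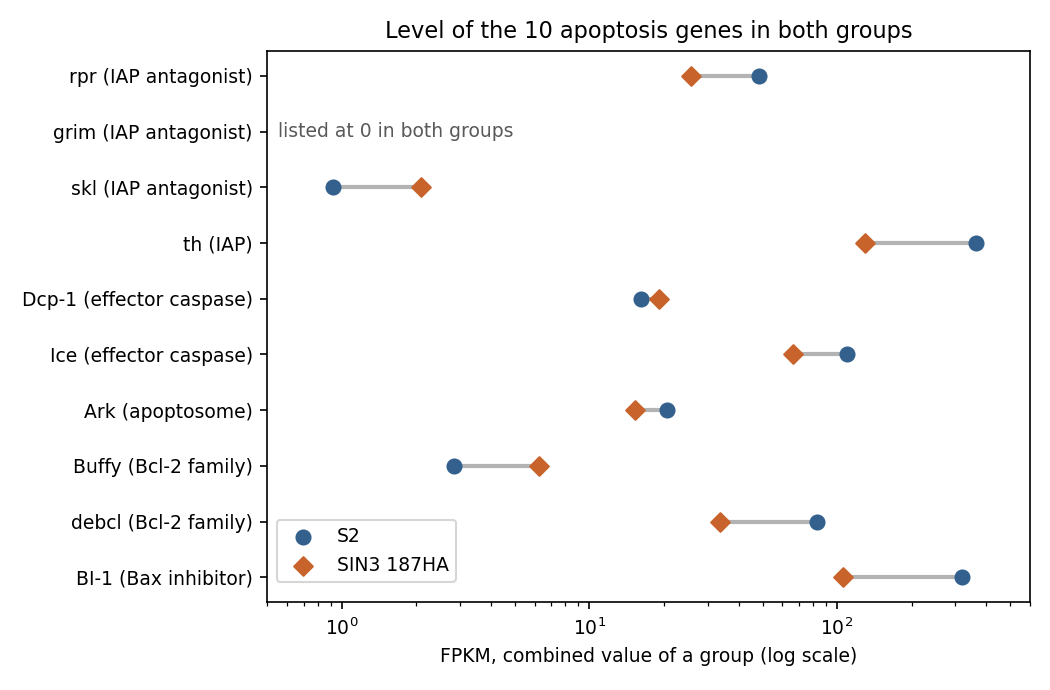
Each of the 10 apoptosis genes is shown with its FPKM in S2 (circles) and in SIN3 187HA (diamonds) on a log axis, the combined value of a group with no error bar. The 3 genes past 2-fold in the lower direction are among the 4 highest in S2, and the 2 that were higher, *skl* and *Buffy*, are the lowest of the 9 drawn as points, while *grim* was listed at 0.

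The genes past 2-fold in the lower direction were abundant, and those in the higher direction were scarce. *th* and *BI-1* were above 96.7% and 96.2% of kept rows in S2, *Ice* above 88.4% and *debcl* above 84.7%. *Buffy* and *skl* were above only 13.3% and 5.27% of kept rows. In order of their S2 level the genes ran *th*, *BI-1*, *Ice*, *debcl*, *rpr*, *Ark*, *Dcp-1*, *Buffy*, *skl* and *grim*. In SIN3 187HA the order was the same, except that *Dcp-1* stood above *Ark*. Whether neighbours in this order differ beyond the replicates cannot be said, since the spread between libraries is not in the table.

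**Figure D2:**
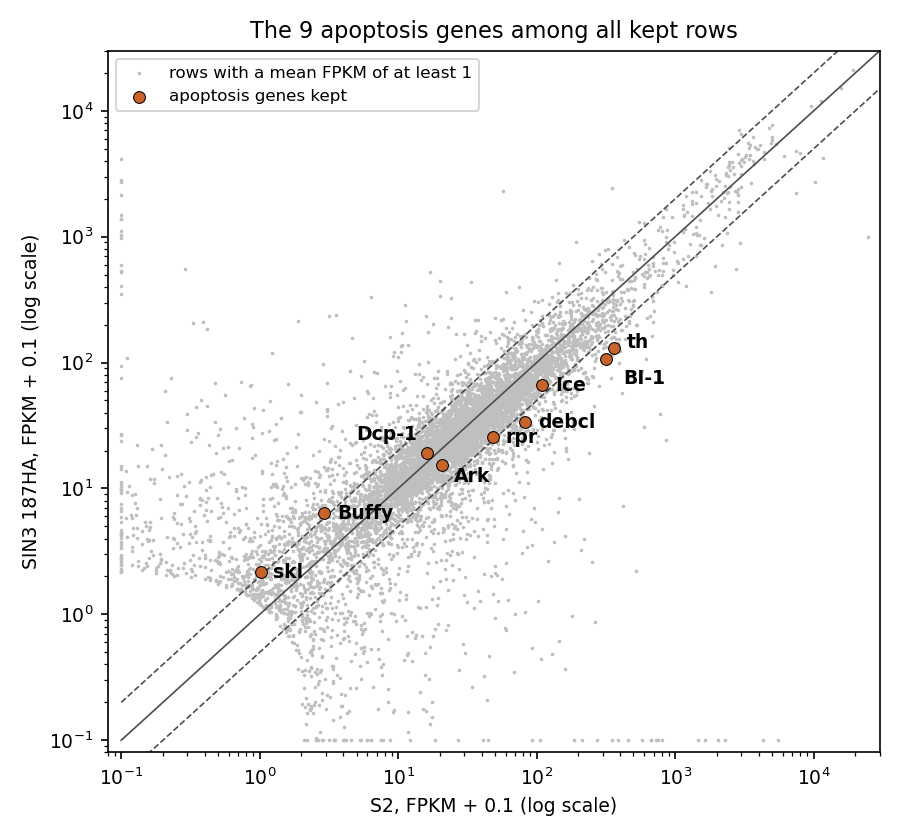
Every kept row is a grey point by its FPKM plus 0.1 in S2 and in SIN3 187HA, both on log axes, with the solid line at equal levels and the dashed lines at 2-fold. *th*, *BI-1* and *debcl* lie below the lower dashed line, *skl* and *Buffy* just above the upper one, and *Ark*, *Dcp-1*, *Ice* and *rpr* between the lines.

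Among the death inducers, *rpr* supplied most of the transcript in both groups. Its level was 48.2 FPKM in S2 and 25.6 FPKM in SIN3 187HA, 1.88-fold lower (log2 difference -0.91), short of the 2-fold threshold. *rpr* lies at chr3L:18390635-18391535 (dm3) as a single annotated transcript that encodes a protein of only 65 residues. *skl*, which encodes a related antagonist of 108 residues, was 0.921 FPKM in S2 and 2.09 FPKM in SIN3 187HA, 2.27-fold higher (log2 difference 1.10). An estimate of depth, taken from the smallest steps between low values, puts these levels at about 54 fragments over the 3 S2 libraries (95% Poisson interval 40 to 70) and about 129 over the 3 SIN3 187HA libraries (108 to 153). The intervals cover counting error only and do not meet. With a pseudocount of 1 FPKM in place of 0.1 the log2 difference of *skl* was 0.68, so its place past the threshold depends on that choice. *grim*, the third inducer of the group, was listed at 0 in both groups. A listed 0 need not mean that no fragments were present, because *Ef1alpha48D*, a translation elongation factor gene used by growing cells, was 5547 FPKM in S2 and also listed at 0 in SIN3 187HA.

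The 3 inducers are neighbours on the left arm of chromosome 3, together with *W*, the gene for Hid, in an interval of 272.2 kb (chr3L:18160843-18433042). *W* was 0.224 FPKM in S2 and 2.13 FPKM in SIN3 187HA, 9.49-fold higher (log2 difference 2.78). Along the chromosome the order was *W* higher, *grim* at 0, *rpr* lower and *skl* higher, so adjacent genes with the same function stood on opposite sides of 0. The interval holds 5 other rows, none of which was kept, with 0.522 FPKM as the highest value. The nearest kept rows outside the interval were *CG32195* and *CG7341*, which share a row at 14.8 FPKM in S2 and 14.9 FPKM in SIN3 187HA, and *CG32196* at 1.95 and 2.89 FPKM. Neither flank was past 2-fold. The summed level of the 4 antagonists was 49.4 FPKM in S2 and 29.8 FPKM in SIN3 187HA, and the share of *rpr* in it was 97.7% and 85.9%. Both genes that were higher therefore added little to the sum, which followed *rpr*.

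The IAP gene *th* was among the highest of the pathway and among the lowest in log2 difference. *th* (chr3L:16031510-16044134) was 364 FPKM in S2 and 129.7 FPKM in SIN3 187HA, 2.81-fold lower (log2 difference -1.49), and 7.86% of kept rows had a lower log2 difference. Its 6 annotated transcripts encode 1 protein length, 438 residues. These coordinates are a listed locus that *th* shares with the non-coding gene *CR43951*, and they can be wider than *th* itself. *CR43951* was 9.15 FPKM in S2 and 7.35 FPKM in SIN3 187HA, both small beside *th*. The other IAP genes did not share the difference. *Diap2* was 65.4 and 69.7 FPKM, *Bruce*, which encodes a giant ubiquitin-conjugating IAP, was 38.6 and 39.2 FPKM, and *Det*, the survivin homologue, was 52.0 and 47.8 FPKM. Their log2 differences were 0.09, 0.02 and -0.12. The 3 genes summed to 156 FPKM in S2 and 157 FPKM in SIN3 187HA, so the difference in the summed level of the 4 IAP genes, 519.8 FPKM against 286 FPKM, came from *th*, whose share was 70.0% in S2 and 45.3% in SIN3 187HA. Genes that act on DIAP1 turnover were not past 2-fold. They are *morgue* (log2 difference -0.70) and *eff* (-0.20), which take part in its ubiquitination, and *IKKepsilon* (0.12), a kinase that lowers DIAP1 levels.

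Both *th* and the summed antagonists were lower in SIN3 187HA, and so was the ratio between them. There were 7.37 FPKM of *th* for each FPKM of the 4 summed antagonists in S2 and 4.35 in SIN3 187HA. Against *rpr* alone the ratio was 7.55 in S2 and 5.06 in SIN3 187HA. These are ratios of RNA levels per length, and the amounts of protein were not measured.

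Neither effector caspase was past 2-fold, and they lay on opposite sides of 0. *Ice* (chr3R:25625375-25627307, 339 residues) was 109.9 FPKM in S2 and 66.3 FPKM in SIN3 187HA, 1.66-fold lower (log2 difference -0.73). *Dcp-1* (chr2R:19435763-19442241, 323 residues) was 16.1 FPKM in S2 and 19.1 FPKM in SIN3 187HA (log2 difference 0.25). *Ice* was thus the more abundant of these closely related caspases in both groups, by 6.83-fold in S2 and 3.46-fold in SIN3 187HA. The locus listed for *Dcp-1* is a shared one and can be wider than the gene. The rows of *levy*, at 142 and 109 FPKM, and *pita*, at 37.4 and 31.1 FPKM, overlap it. Both were slightly lower in SIN3 187HA (log2 differences -0.38 and -0.26), and since no source used here states whether strand was kept, reads of the 3 genes may not be fully separated. The remaining effector caspases were below the level required of a kept row. *Decay* was listed at 0 in S2 and was 0.0189 FPKM in SIN3 187HA, and *Damm* was 0.0903 and 0.794 FPKM.

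The initiator caspases and their activator stood on different sides of 0. *Ark* (chr2R:12907549-12914208), the adaptor that activates Dronc, was 20.5 FPKM in S2 and 15.2 FPKM in SIN3 187HA, 1.35-fold lower (log2 difference -0.43). *Nc*, the gene for Dronc itself, was 18.3 FPKM in S2 and 41.0 FPKM in SIN3 187HA (log2 difference 1.16). *Dredd*, a caspase of the immune deficiency pathway, was 7.35 and 17.1 FPKM (1.21), and *Strica*, an initiator-like caspase, was 45.4 and 35.3 FPKM (-0.36). The ratio of *Nc* to *Ark* was 0.892 in S2 and 2.69 in SIN3 187HA, and the ratio of *Ice* to *Nc* was 5.99 and 1.61. Set against the inhibitor, the S2 ratio of *th* to *Nc* was 19.8, and it was 3.16 in SIN3 187HA. For *th* to *Ice* the ratio was 3.31 in S2 and 1.96 in SIN3 187HA, and for *th* to *Dcp-1* it was 22.6 and 6.78. In each of these pairs there was less *th* RNA for each unit of caspase RNA in SIN3 187HA than in S2. The cytochrome c gene *Cyt-c-p*, expressed in most tissues for respiration, was 676 FPKM in S2 and 329 FPKM in SIN3 187HA (log2 difference -1.04). *Cyt-c-d*, the adjacent gene that is needed for caspase activation in spermatids, was 12.4 and 0.323 FPKM (-4.88).

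The fly has 2 genes of the Bcl-2 family, and both were past the threshold, in opposite directions. *debcl* (chr2R:2536159-2540347, 300 residues), which promotes death in most settings, was 82.9 FPKM in S2 and 33.6 FPKM in SIN3 187HA, 2.46-fold lower (log2 difference -1.30). *Buffy* (chr2R:7566978-7576264, 299 residues), which mostly protects cells, was 2.83 FPKM in S2 and 6.26 FPKM in SIN3 187HA, 2.21-fold higher (log2 difference 1.12). The ratio of *debcl* to *Buffy* was 29.3 in S2 and 5.38 in SIN3 187HA, so *debcl* was the predominant transcript of the pair in both. By the estimate of depth, *Buffy* rests on about 124 fragments in the S2 libraries (103 to 148) and about 290 in the SIN3 187HA libraries (258 to 325). With a pseudocount of 1 FPKM its log2 difference was 0.92, short of the threshold. The locus listed for *Buffy* is shared with *CG13196* and can be wider than the gene. *CG13196* was 2.08 FPKM in S2 and 7.34 FPKM in SIN3 187HA (log2 difference 1.77), and reads of these genes may not be told apart either.

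*BI-1*, the Bax inhibitor homologue of the endoplasmic reticulum membrane, had the lowest log2 difference of the 10 genes. *BI-1* (chr3L:8300245-8302041, 245 residues in the longer annotated form) was 319 FPKM in S2 and 105.9 FPKM in SIN3 187HA, 3.01-fold lower (log2 difference -1.59), and 7.23% of kept rows had a lower log2 difference. *th* and *BI-1*, which both inhibit death by separate routes, stayed in nearly the same proportion, with 1.14 FPKM of *th* for each FPKM of *BI-1* in S2 and 1.22 in SIN3 187HA. The ratio of *BI-1* to *debcl* was 3.85 and 3.15.

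The rest of the pathway did not lean to the lower side. Of 31 further apoptosis genes, 27 were kept and 10 of those (37.0%) were past 2-fold, beside 25.2% of all kept rows. Of the 10, 7 were higher and 3 lower, and the median log2 difference of the 27 was 0.12. Besides *W*, *Nc*, *Dredd*, *Cyt-c-p* and *Cyt-c-d*, the 10 genes were 3 of death signalling, 1 of DNA fragmentation and 1 of engulfment. *egr*, which encodes the fly tumour necrosis factor Eiger, was 17.7 FPKM in S2 and 200.8 FPKM in SIN3 187HA, 11.4-fold higher (log2 difference 3.50). Its receptor gene *wgn* was 15.8 and 34.0 FPKM (1.11), and *p53* was 7.47 and 30.8 FPKM (2.03). *Drep1*, which encodes the inhibitor of the caspase-activated nuclease, was 20.5 and 48.6 FPKM (1.24). *drpr*, the engulfment receptor gene Draper, was 25.3 and 4.79 FPKM (-2.37) on a row that it shares with *Oseg4*, so the value belongs to both. Ligand, receptor and *p53* were thus higher. Of the IAP antagonists, *W* (2.78) and *skl* (1.10) were higher too, whereas *rpr*, a known target of p53 after irradiation, was not. The activity of p53 was not measured, and a link between these levels was not tested. None of the 16 kept autophagy genes of 17 was past 2-fold, beside the 25.2% of all kept rows. Their log2 differences ran from -0.78 to 0.95 with a median of -0.03.

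**Figure D3:**
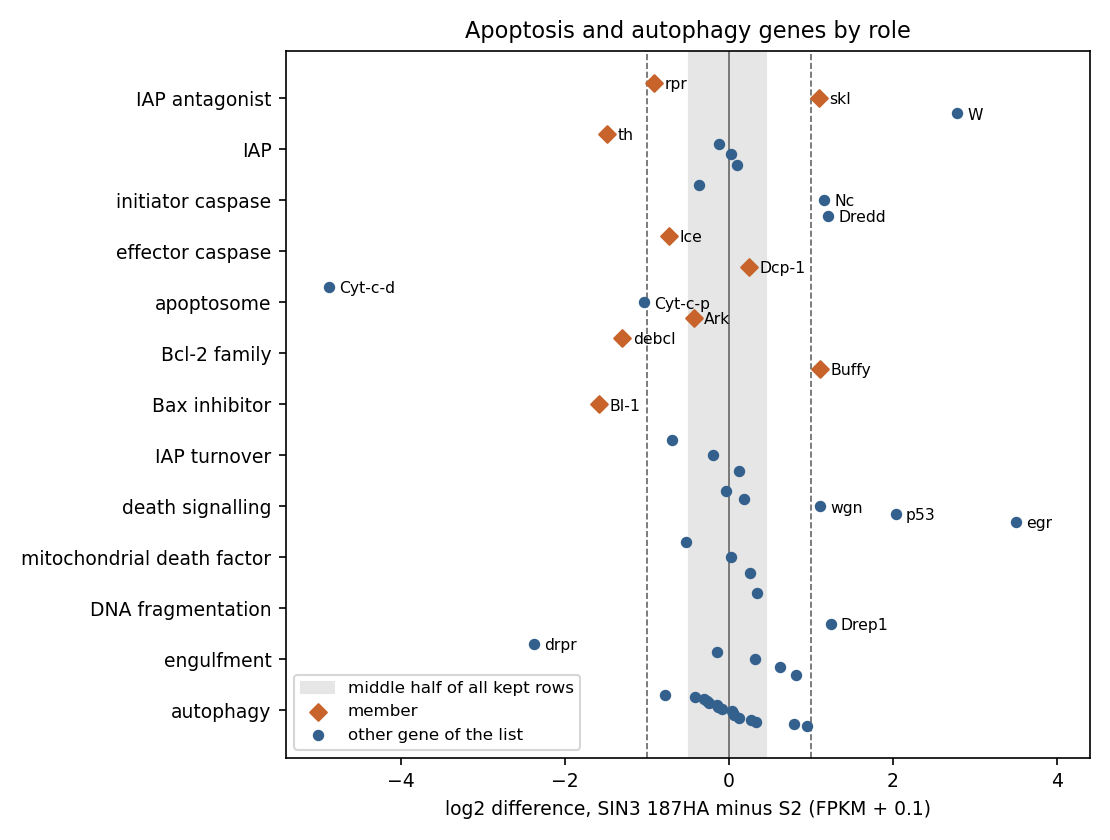
Log2 differences of the kept apoptosis and autophagy genes by role (diamonds for the 9 kept genes of the 10 chosen, circles for the others), with dashed lines at 2-fold and grey for the middle 50% of all kept rows, -0.49 to 0.46. *th* stands apart from the other 3 IAP genes, the 2 Bcl-2 family genes lie on opposite sides of 0, and the autophagy genes lie between the dashed lines.

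Adjacent genes can differ together, so each gene was set beside the 24 nearest kept rows, 12 on each side, leaving out rows that share its locus. The stretch that holds these rows differed in length between genes. It ran from position 25551552 to 25694617 around *Ice* and from 17872196 to 18677161 around *rpr*. The distance of a neighbour was not taken into account. *th*, *debcl* and *BI-1* were each more than 2-fold lower relative to their neighbours too. The neighbours of *debcl* had a median log2 difference of 0.14, with 15 above 0 and none past 2-fold lower, which places *debcl* 1.44 below that median. The neighbours of *th* had a median of -0.20, and *th* lay 1.29 below it. For *BI-1* the median was -0.44, with 19 of 24 neighbours below 0, and *BI-1* lay 1.15 below it. The surroundings of *BI-1* thus leaned to the lower side as well, by less than the gene itself.

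*rpr* and *Ice* lay farther from the pooled median of their neighbours than from 0, but for both the value depended on the side of the gene that was used. The pooled median around *Ice* was 0.43, and *Ice* lay 1.16 below it. The sides of the gene differed. All 12 neighbours before *Ice* (in coordinate order) were above 0, with 9 past 2-fold higher and a median of 1.48, whereas 9 of the 12 after it were below 0, with a median of -0.53. *Ice* lay 2.21 below the former and only 0.20 below the latter. The kept rows directly beside it were above 0 on both sides, *sro* at 0.64 before it and *CG7834* at 0.66 after it. *Ice* was thus near the median of the side after it, but not near its closest neighbours. *rpr* lay 1.00 below a pooled median of 0.09, with 0.39 below the median of the neighbours before it and 1.40 below that of those after it. *skl*, in the same stretch, lay 1.08 above a pooled median of 0.02, with 1.62 above the median of the neighbours before it and 0.68 above that of those after it. The neighbours of *rpr* include *W* (2.78) and *skl* (1.10), and those of *skl* include *W* and *rpr*. These medians thus contain other IAP antagonists, and none was taken without them. *rpr* reached 2-fold against its pooled median only narrowly. *th*, *debcl* and *BI-1* were more than 2-fold below the median of either side, by 1.09 and 1.58 for *th*, 1.36 and 1.55 for *debcl*, and 1.23 and 1.11 for *BI-1*, before and after the gene. The neighbours of *Buffy* had a median of 0.77, 19 of 24 lay above 0, and *Buffy* lay only 0.34 above them, so that most of its difference was matched along that stretch. *Ark*, at 0.07 above its neighbours' median of -0.50, did not stand apart from them, and *Dcp-1* lay 0.37 above a median of -0.12. Against the pooled median, 6 of the 9 genes were at least 2-fold from their surroundings, *skl* above and *rpr*, *th*, *Ice*, *debcl* and *BI-1* below. Of these, *rpr*, *Ice* and *skl* were not 2-fold from the median of one of their sides. How many of all kept rows lie that far from their own neighbours was not computed, so this count has no background share. Among the other apoptosis genes past the threshold, *egr*, *W*, *p53*, *drpr* and *Cyt-c-d* remained past 2-fold against the pooled median. *Nc* lay 0.65, *Drep1* 0.73 and *Dredd* 0.43 above neighbours whose median was higher too, and *wgn* lay in a stretch where all 24 neighbours were above 0. *Cyt-c-p* lay only 0.05 from its neighbours' median of -1.09, and 22 of those 24 were below 0.

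**Figure D4:**
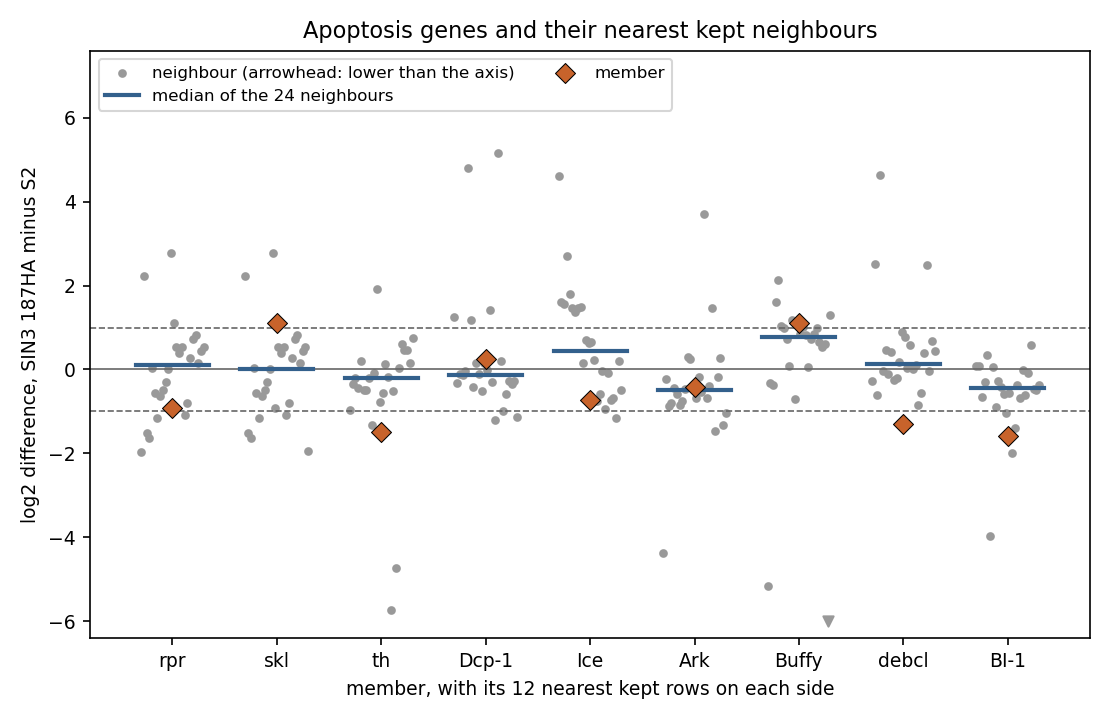
Each kept apoptosis gene (diamond) is shown with the log2 differences of its 24 nearest kept rows (grey points, in coordinate order from left to right) and their median (bar). *th*, *debcl*, *BI-1*, *rpr* and *Ice* lie 1.00 or more below the bar and *skl* above it by 1.08, although the points around *Ice* are high to its left and mostly below 0 to its right, whereas *Ark* and *Buffy* lie near it, and an arrowhead marks 1 neighbour of *Buffy* that lies below the drawn range.

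Haemocyte markers were checked because S2 cells resemble haemocytes. The summed level of 6 markers was 1043 FPKM in S2 and 183 FPKM in SIN3 187HA, with 4 of the 6 at least 2-fold lower and *Hml* at 0.520 and 0.676 FPKM. The largest contributor, *He*, was 766 FPKM in S2 and 72.7 FPKM in SIN3 187HA, whereas *srp*, on a row shared with *CR44133*, was 86.9 and 77.0 FPKM. Markers of neurons, of muscle and of germline each summed to at most 7.08 FPKM in either group. The highest single marker, *elav* of neurons, was 2.39 FPKM in S2 and 6.74 FPKM in SIN3 187HA (log2 difference 1.46). *Mhc* of muscle was the only other of these markers past 2-fold, lower at 0.439 and 0.140 FPKM. The part of the haemocyte markers' difference in the lower levels of *th*, *debcl* and *BI-1* was not tested. In RNA from whole cultures, fewer cells that express a gene and less RNA of it per cell cannot be told apart.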

How the data were processed

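RNA-seq compared S2 with SIN3 187HA cells, 3 libraries each, grouped by their labels. Per the methods of the study, total RNA was extracted, cDNA was made from purified mRNA, and TruSeq libraries were sequenced in paired-end mode. The authors used Bowtie2 and Tophat for alignment to dm3, Cufflinks for the levels of RefSeq genes and cuffdiff for the comparison. The submitters' processing notes also name bcl2fastq. Tool versions are not given in the sources used here, and neither is the use of strand. The authors deposited 1 table with the combined FPKM of each group, scaled by cuffdiff. It also holds the authors' log2 fold change, test statistic, p-value, q-value and a call of significance, none of which was used.

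Rows with a mean FPKM of at least 1 were kept, and log2 differences were computed after adding 0.1 FPKM, with Python 3.11.15, pandas 2.3.3, NumPy 2.4.6, SciPy 1.17.1 and matplotlib 3.10.9. With 1 combined value a group, no test was possible. Symbols were matched exactly, then by RefSeq synonyms, then ignoring case (for *Strica* and *Decay*). The named genes are the 10 genes, *Sin3A*, other apoptosis or autophagy genes past 2-fold, genes sharing a role with one of the 10, rows beside the interval of the IAP antagonists, and marker genes. The choice to name *Ef1alpha48D*, genes whose rows overlap the locus of one of the 10 and the genes of DIAP1 turnover was made with their values known. The genes and lists were chosen with earlier results of these data known. Coordinates are those of the locus listed for a row in the deposited table (dm3, counted from 1). For *th*, *Dcp-1* and *Buffy* that locus is shared with another row, and whether the transcripts themselves overlap was not checked. The Ensembl annotation of BDGP6 gave transcript and protein lengths, and no coordinates were taken from it.

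Depth was estimated after the data had been seen, because the table gives no counts. For genes with 1 transcript longer than 1500 nt, FPKM times length in kb had a lowest step (values up to 0.03) with a median of 0.0237 in S2 (101 genes) and 0.0224 in SIN3 187HA (66 genes). If that step is 1 fragment over 3 libraries, it corresponds to about 14035930 and 14888106 fragments a library. Fragment numbers and their 95% Poisson intervals rest on this estimate. Scripts were tested on simulated data. Alternatives covered the pseudocount, the filter, 3 scalings, loci with 1 gene, other thresholds and the difference from neighbouring rows, on both sides together and, added after the data had been seen, on each side.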

Additional observations from a re-analysis of the deposited data

How the results depend on the processing

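Of the 9 kept genes, *Ark* was the only one whose log2 difference changed sign under an alternative, from -0.43 to 0.07 against neighbours. The count of 5 of 9 genes past 2-fold (55.6%, beside 25.2% of all kept rows) was 3 of 9 with a pseudocount of 1 FPKM (33.3% beside 21.8%), 3 of 7 with a mean FPKM of at least 5 (42.9% beside 19.4%), which leaves out *skl* and *Buffy*, and 3 of 6 when only loci with 1 gene were used (50.0% beside 26.4%), which leaves out *th*, *Dcp-1* and *Buffy*. At a 3-fold threshold it was 1 of 9 (11.1%), below the 15.1% of all kept rows. It was 7 at 1.5-fold (77.8% beside 42.6%), where *rpr* and *Ice* joined, and 5 under each of the 3 scalings. The count of 10 other apoptosis genes (37.0% of the 27 kept) was 5 of 27 at 3-fold, beside 15.1% of all kept rows. It was also 5 with loci of 1 gene, beside 26.4% of all kept rows, though how many of these genes were kept was not recorded. Against neighbours it was 5, and no share of all kept rows was computed there. The count of 2068 rows was 3286 without a filter, 1332 with a mean FPKM of at least 5, 1154 with loci of 1 gene, 3491 at 1.5-fold and 1237 at 3-fold. The median log2 difference of the kept genes ran from -0.62, with both groups scaled to the same upper quartile, to -1.0 against neighbours. Under the pseudocounts, the scalings and the pooled neighbours, single genes crossed the 2-fold line or shifted by over 1.5-fold in these cases: *skl* at 0.68 and *Buffy* at 0.92 with a pseudocount of 1 FPKM, and *rpr* at -1.0, *Ice* at -1.16 and *Buffy* at 0.34 against neighbours. The neighbours before and after a gene were taken separately after the data had been seen. Fewer rows pass the stricter filters and the locus rule by construction, and the cause of the other differences was not tested.

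Replicate spread limits every comparison, because it is not in the combined values. Leaving out a library was therefore not run. No paired analysis was possible because the table holds 1 combined value a group. At low levels, as for *skl*, *Buffy* and *W*, counting error adds to this, and the fragment numbers behind it are estimates.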
